A study of Homo sapiens with 9 samples.

Results

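The genes described here build the motile cilium or control its genes: 47 symbols for dynein arms and the factors that assemble them, radial spokes, the central pair, the nexin-dynein regulatory complex, proteins of the doublet microtubules, other cilium-linked proteins, and the transcription factors RFX1, RFX2, RFX3 and FOXJ1. A gene was measured where the array annotation mapped a probe set (a group of probes read as 1 value) to its symbol, or to a newer symbol of the same gene, and to no other gene. This held for 45 of the 47, out of 19775 genes measured in all. AK7 was not matched, and the probe set of CCDC39 is shared with another gene. GAS8, CCDC65 and IQCG stand in the annotation under the newer symbols DRC4, DRC2 and DRC9. A gene with several probe sets (26 of the 45) was represented by the one with the highest mean over the arrays.

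The cells were MDA-MB-231, an established human breast cancer line of the triple-negative type, reverse transfected with a small RNA at 10 nM, and total RNA was taken 48 h later. There were 3 groups of 3 wells, given the negative control AllStar, Qmimic or Dmimic, and the labels call the wells biological replicates. All 9 wells were measured on Affymetrix HG-U133 Plus 2.0 arrays, 1 array a well. The title of the series names AXL, a receptor tyrosine kinase, and miR-34a, while the labels say neither what Q and D stand for nor what sequence either mimic has. All values are log2 signals from RMA, a method that corrects background, equalises the distributions of the arrays and summarises the probes of a probe set.

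OSCP1, DNAAF4, SPATA17, FANK1 and DPCD were chosen by their log2 differences between mimic and AllStar arrays in earlier results of these data. Their differences from AllStar are therefore a description without a test. The other 40 measured genes were written down by function, with the same results in view.

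Motile cilia beat by means of dynein motors that slide the doublet microtubules of the axoneme past each other. Radial spokes and the central pair time the motors, and the regulatory complex links the doublets. In airway and ependymal cells FOXJ1 and the RFX factors switch these genes on together, the RFX factors by way of a promoter element called the X-box. The microRNAs of the miR-34 and miR-449 families are known to be abundant in such multiciliated cells and to favour the formation of their cilia, whereas most of the structural genes are silent in other epithelia.

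The mature microRNAs of both families in the RefSeq table are shown because their seeds, which select targets, fall into 2 closely related kinds. That table held no mature hsa-miR-34c-5p, so this member of the miR-34 family is missing below. Capitals mark the seed (bases 2 to 8), and coordinates are those of GRCh38.p14. The sequences transfected here are not given in the sources used here.
hsa-miR-34a-5p, chr1:9151735-9151756, minus strand: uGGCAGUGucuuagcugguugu
hsa-miR-449a, chr5:55170586-55170607, minus strand: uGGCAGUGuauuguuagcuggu
hsa-miR-449b-5p, chr5:55170706-55170727, minus strand: aGGCAGUGuauuguuagcuggc
hsa-miR-34b-5p, chr11:111512950-111512972, plus strand: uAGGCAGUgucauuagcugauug
hsa-miR-449c-5p, chr5:55172313-55172337, minus strand: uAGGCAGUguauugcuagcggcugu
The first 3 have the same seed, and the last 2 share a seed that is shifted by 1 base against it.

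AllStar replicate 3 was unlike the remaining 8 arrays. Over all probe sets it correlated with them at 0.974 to 0.981, while these correlated with each other at 0.993 to 0.998. The mean log2 signal of its probe sets for 18S ribosomal RNA was 8.73 against 5.27 to 6.26. Differences from AllStar are therefore given with all 9 arrays and, beside them, without it. The cells had the profile of their label: the log2 signal of the mesenchymal filament vimentin (VIM) was 13.53 to 13.71 on the 9 arrays and that of the epithelial cadherin CDH1 was 3.44 to 4.02. CDH1 was the lowest of 6 markers of luminal breast cells, and ERBB2 was the highest, with a mean of 8.59. Over 6 markers of multiciliated cells (FOXJ1, DNAI1, DNAH9, TPPP3, CAPS and RSPH4A) the mean log2 signal was 5.32 to 5.84 with AllStar, 5.29 to 5.37 with Qmimic and 5.39 to 5.45 with Dmimic. RSPH4A, a radial spoke head protein of multiciliated cells, was the lowest of these markers, at 2.71 to 3.01 on the 9 arrays. CAPS was the highest, with a mean of 6.77.

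The comparison of the mimics with AllStar asks which transcripts each small RNA changes. With all 9 arrays and the mean of both mimics, 23 of the 45 members were above AllStar and 22 below, with a median log2 difference of 0.028, against -0.018 over all 19775 genes. In limma, with a Benjamini-Hochberg adjusted p under 0.05 and a change of at least 1.5-fold, 1 member (OSCP1) passed as higher and 0 as lower, where 0.116% of all genes passed as higher and 0.0152% as lower. All 6 mimic arrays lay above all 3 AllStar arrays for 13 members, 5 of them the genes named from earlier results, and below for 2 (SPAG6 and RSPH9), against 12.8% and 4.21% of all genes. For the 40 members written down by function these counts were 8 and 2, and the median difference was -0.045, while without AllStar replicate 3 they were 10 and 3 with a median of 0.038.

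Without AllStar replicate 3, 27 members were above and 18 below the control, with a median of 0.042, and the groups did not overlap for 15 members above the control and 3 below it (14.8% and 11.5% of all genes). In that fit 5 members passed as higher and 0 as lower (0.597% and 0.445% of all genes), and they were OSCP1, DNAAF4, SPATA17, FANK1 and DPCD. These are the genes chosen by the same differences, so the counts of calls that hold them describe the choice and support nothing. None of the 40 others passed in limma with either set of arrays, while 13 of them had an unadjusted p under 0.05 with all 9 arrays and 14 without AllStar replicate 3. Over all 19775 genes 4761 and 4542 had such a p. The count of 1 was 0 when any of the other 8 arrays was left out, 0 when the arrays were centred on their medians, and 3 after repeated quantile normalization. The count of 5 without AllStar replicate 3 was 0 when AllStar replicate 1 or 2 was left out as well, 3 when Qmimic replicate 1 was, and 2 when Qmimic replicate 2 was.

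**Figure D1:**
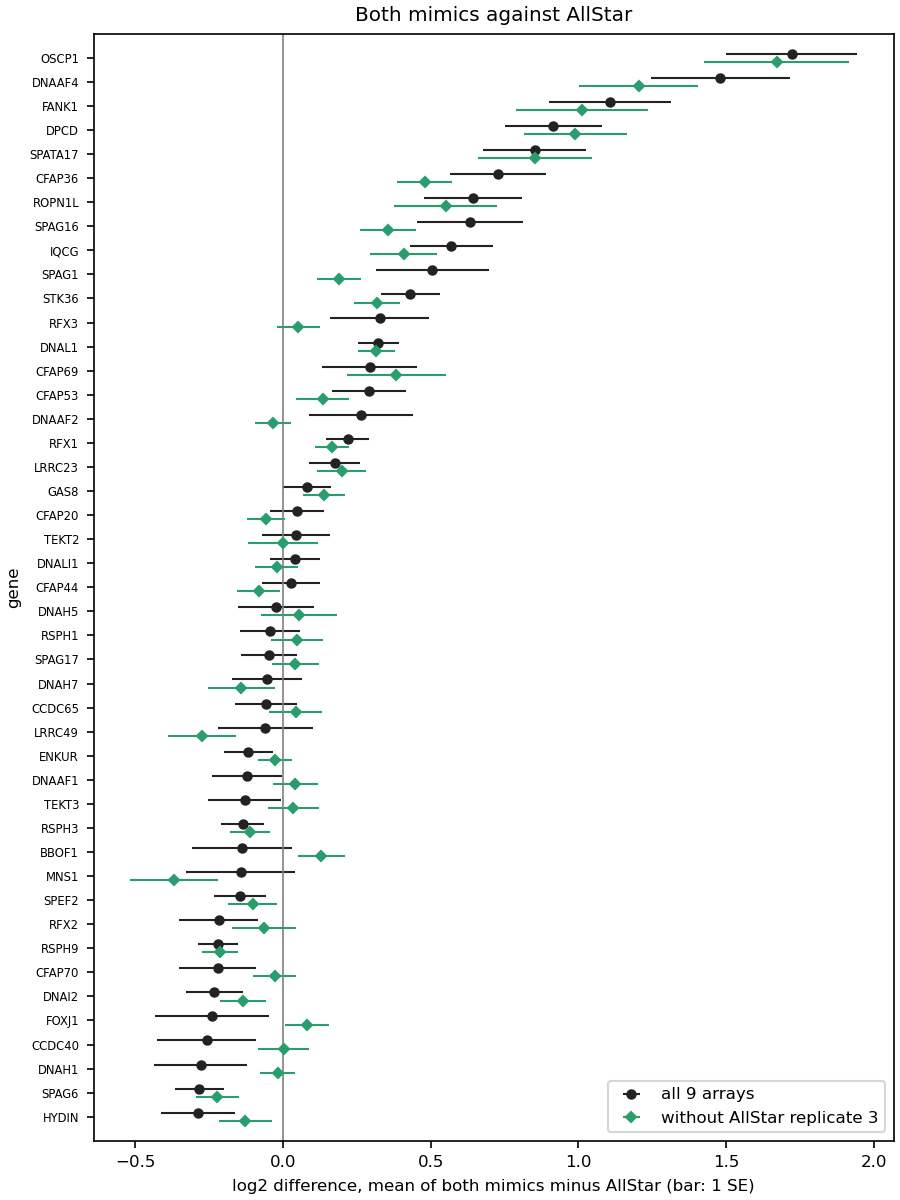
Log2 difference between the mean of both mimics and AllStar (horizontal axis) for each of the 45 measured genes (vertical axis), with bars of 1 SE; circles use all 9 arrays and diamonds leave out AllStar replicate 3. OSCP1 lies highest at 1.72 and 1.67, and most of the other genes lie close to 0.

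For each mimic alone, 0 members passed in limma with all 9 arrays, where 15 had an unadjusted p under 0.05 with Qmimic and 15 with Dmimic, against 3900 and 3425 of all 19775 genes. Over all genes 0% passed with Qmimic in either direction and 0.0101% as higher with Dmimic. Without AllStar replicate 3, OSCP1 and DNAAF4 passed as higher with Qmimic (2 of 45 members, with 0.44% of all genes higher and 0.253% lower), and all 5 genes chosen by earlier results with Dmimic (5 of 45 members, with 0.622% higher and 0.647% lower). All of these are genes chosen by these differences, and the 2 comparisons share their AllStar arrays. The count with Qmimic was 0 when AllStar replicate 1 or 2, or Qmimic replicate 1 or 2, was left out as well, 1 when Qmimic replicate 3 or Dmimic replicate 1 was, and 3 when Dmimic replicate 3 was. That with Dmimic was 0 without AllStar replicate 1 or 2, 3 without Qmimic replicate 2, and 6 without Dmimic replicate 2, where IQCG was added.

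OSCP1, a protein linked to ciliated organisms, showed the highest difference among the members. On the log2 scale it read 5.61, 5.41 and 5.35 with AllStar, 7.43, 6.75 and 6.78 with Qmimic, and 6.97, 7.17 and 7.98 with Dmimic. All mimic arrays lay above all control arrays, by more than the spread within any group. Means over the 3 arrays of a group, with the SD, were 5.46 ± 0.13 for AllStar, 6.99 ± 0.39 for Qmimic and 7.37 ± 0.54 for Dmimic, a 2.89-fold and a 3.77-fold difference. Without AllStar replicate 3 these were 2.79-fold and 3.64-fold.

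DNAAF4 encodes a factor that helps to fold and assemble dynein arms in the cytoplasm. It read 5.39, 5.22 and 4.48 with AllStar, 6.55, 6.36 and 6.19 with Qmimic, and 6.37, 6.37 and 7.24 with Dmimic. The groups did not overlap, and AllStar replicate 3 was the lowest array. The difference was 2.52-fold with Qmimic and 3.09-fold with Dmimic, and without that array 2.08-fold and 2.55-fold.

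FANK1 is a nuclear protein with a fibronectin domain and ankyrin repeats, best known from the testis. Its log2 signal was 4.88, 4.84 and 4.58 with AllStar, 6.02, 5.64 and 5.09 with Qmimic, and 5.92, 5.97 and 6.60 with Dmimic. Qmimic replicate 3 came close to the control arrays, and the 3 Dmimic arrays lay well above them. The difference was 1.76-fold with Qmimic and 2.63-fold with Dmimic. Without AllStar replicate 3 it was 1.65-fold and 2.47-fold.

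SPATA17, a calmodulin-binding protein of sperm and cilia, had low signals throughout. They were 3.78, 3.98 and 3.89 with AllStar, 4.56, 4.54 and 4.05 with Qmimic, and 4.81, 4.90 and 5.57 with Dmimic. All Dmimic arrays lay above all Qmimic arrays and these above all AllStar arrays. The difference was 1.41-fold with Qmimic and 2.31-fold with Dmimic, and without AllStar replicate 3 it was 1.42-fold and 2.31-fold. These values come from the brighter of 2 probe sets. On the dimmer one, with a mean of 3.94, the log2 difference was smaller, 0.25 with Qmimic and 0.58 with Dmimic. Without AllStar replicate 3 it was 0.25 and 0.57. The dimmer probe set did not pass for both mimics in either fit.

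DPCD, named for a mouse mutant with primary ciliary dyskinesia, was measured by 2 probe sets. On the brighter one the log2 signal was 8.09, 8.03 and 8.29 with AllStar, 9.20, 8.72 and 8.75 with Qmimic, and 9.02, 8.98 and 9.65 with Dmimic. The second gave 7.59, 7.50 and 6.75, then 8.83, 8.36 and 8.22, then 8.44, 8.58 and 9.19, in the same order. On both, each mimic array lay above each control array, and AllStar replicate 3 was the highest control on the first and the lowest on the second. The difference of both mimics from AllStar was 1.89-fold on the first and 2.50-fold on the second, or 1.99-fold and 2.08-fold without AllStar replicate 3.

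**Figure D2:**
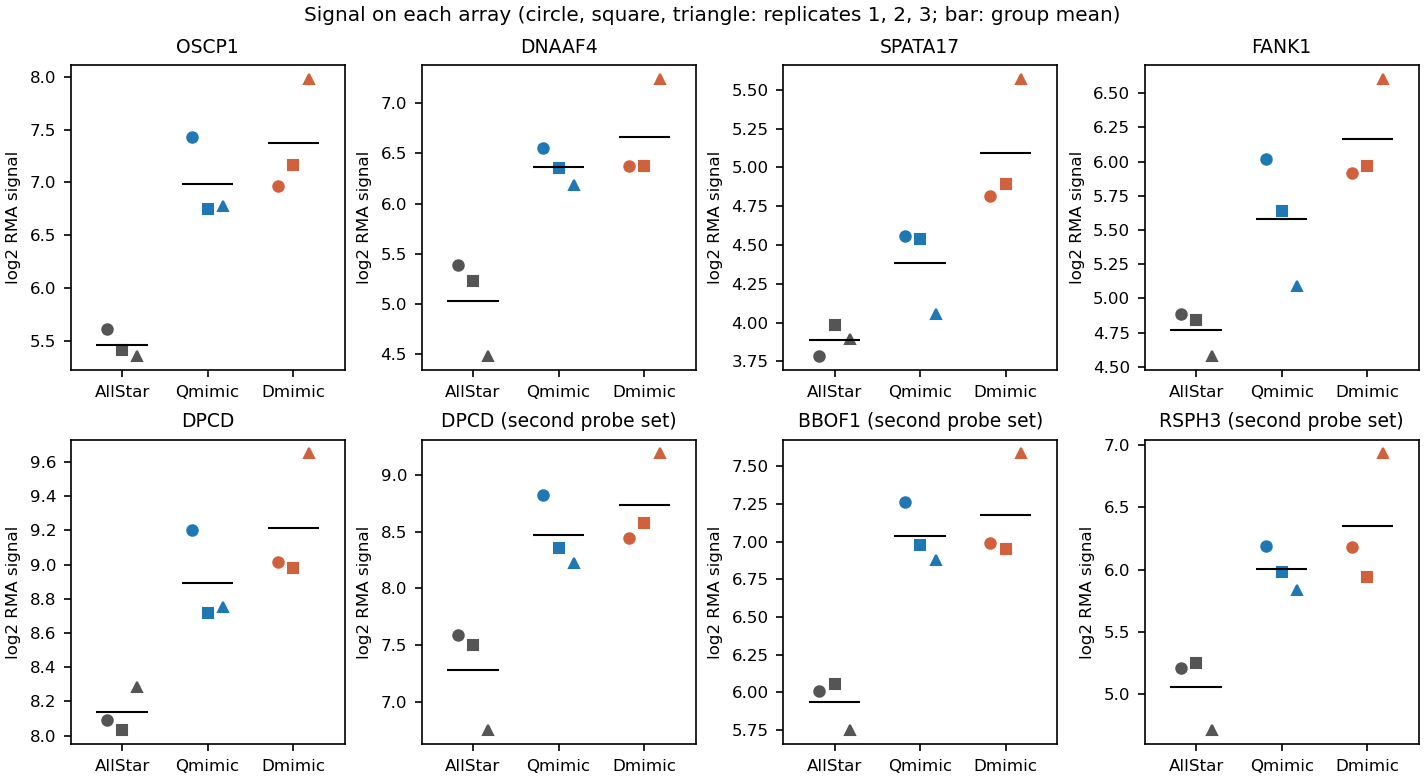
Log2 RMA signal (vertical axes) on each array for the 5 genes named from earlier results, with the second probe set of DPCD and the probe sets of BBOF1 and RSPH3 that did not represent their genes; circles, squares and triangles are replicates 1, 2 and 3, and bars are group means. In each of the 8 panels all mimic points lie above all AllStar points, and Dmimic replicate 3 is the highest array.

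For BBOF1 and RSPH3 the choice of probe set decided what was seen, and they are singled out after their values were seen. Probe sets differed for other members too. CFAP70 lay at -0.22 for both mimics on its brightest and at 0.67 on another (-0.029 and 0.63 without AllStar replicate 3). BBOF1 is needed for the alignment of basal bodies in multiciliated cells. On its brighter probe set, whose name marks probes that can cross-hybridise, the difference of both mimics from AllStar was -0.14 with all arrays and 0.13 without AllStar replicate 3. On the other probe set the log2 signal was 6.01, 6.06 and 5.75 with AllStar, 7.26, 6.98 and 6.88 with Qmimic, and 6.99, 6.95 and 7.59 with Dmimic. There the groups did not overlap, and the difference was 2.15-fold with Qmimic and 2.36-fold with Dmimic (2.01-fold and 2.21-fold without AllStar replicate 3).

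RSPH3, a radial spoke protein that anchors protein kinase A, had 4 probe sets. The brightest gave a difference of -0.14 for both mimics, or -0.11 without AllStar replicate 3. On another the log2 signal was 5.21, 5.26 and 4.71 with AllStar, 6.19, 5.98 and 5.83 with Qmimic, and 6.18, 5.94 and 6.93 with Dmimic. The groups did not overlap there, with differences of 1.92-fold and 2.45-fold, or 1.70-fold and 2.17-fold without AllStar replicate 3. The remaining 2 probe sets of RSPH3 lay at 0.50 and 0.49 with all 9 arrays, and at 0.30 and 0.44 without AllStar replicate 3. Over all 98 probe sets of the members, 2 passed for both mimics with all 9 arrays as higher (those of OSCP1 and the dimmer one of BBOF1) and 0 as lower, where 0.0732% and 0.00732% of all probe sets passed. Without AllStar replicate 3, 8 passed as higher and 0 as lower (0.381% and 0.341% of all probe sets). They were those of OSCP1, DNAAF4 and FANK1, the brighter one of SPATA17, both of DPCD, and those of BBOF1 and RSPH3 without overlap. All but the last named belong to genes chosen by these differences, and BBOF1 and RSPH3 were singled out by them. The counts therefore support nothing. When each gene was the mean of its probe sets, 4 members passed with all 9 arrays, namely OSCP1, DNAAF4, SPATA17 and DPCD, all chosen by these differences.

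Among the other assembly factors, SPAG1 and DNAAF2 turned on AllStar replicate 3. SPAG1, a chaperone cofactor for dynein arms, read 8.50, 8.42 and 7.51 with AllStar against 8.55 to 8.88 on the 6 mimic arrays, a log2 difference of 0.51 that was 0.19 without that array (adjusted p = 0.213 and adjusted p = 0.203 in limma). DNAAF2 read 8.45, 8.41 and 7.54 with AllStar against 8.34 to 8.46, and its difference of 0.26 became -0.032. On both genes AllStar replicate 3 was the lowest of the 9 arrays. DNAAF1 lay at -0.12 with all arrays and 0.042 without that array.

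Of the outer arm, the light chain DNAL1 had 3 groups of arrays that did not overlap. Its 9 values were 6.83, 6.90 and 6.84 with AllStar, 7.04, 7.07 and 6.91 with Qmimic, and 7.35 on each of the 3 Dmimic arrays. The order was AllStar, Qmimic, Dmimic. The difference of Dmimic from AllStar was 1.41-fold (adjusted p = 0.0873 in limma) and 1.40-fold without AllStar replicate 3 (adjusted p = 0.0148), both under the threshold of 1.5-fold. The heavy chain DNAH5 lay at -0.023 for both mimics, or 0.054 without AllStar replicate 3. Its dimmer probe set lay at 0.31, or 0.33 without that array (adjusted p = 0.0925 and adjusted p = 0.0283 in limma). The intermediate chain DNAI2 lay at -0.23, or -0.14 without that array.

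For the mean of both mimics, the 3 inner arm genes overlapped with the control. DNAH1 read 6.37, 6.45 and 7.19 with AllStar against 6.31 to 6.51 with the mimics, a difference of -0.28 that was -0.017 without AllStar replicate 3. For DNAH7 the difference of both mimics was -0.054, or -0.14 without that array, and for the light chain DNALI1 it was 0.040, or -0.022.

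Of the radial spoke genes, ROPN1L, a protein with a domain that docks on the anchors of protein kinase A, was higher with both mimics on every array. The 9 arrays read 4.72, 4.70 and 4.44 with AllStar, 5.49, 5.21 and 4.84 with Qmimic, and 5.15, 5.17 and 5.71 with Dmimic. The difference of both mimics was 1.56-fold (SE 0.17 log2, adjusted p = 0.118 in limma) and 1.47-fold without AllStar replicate 3 (adjusted p = 0.115). Qmimic replicate 3 came closest to the control arrays. The dimmer probe set of ROPN1L, with a mean log2 signal of 3.37, lay at 0.020 for both mimics, or 0.19 without AllStar replicate 3. RSPH9, a spoke head protein, read 4.17, 4.25 and 4.23 with AllStar and 3.94 to 4.08 on the mimic arrays, a log2 difference of -0.22, or -0.21 without AllStar replicate 3 (adjusted p = 0.158 and adjusted p = 0.088 in limma). LRRC23, another radial spoke protein, lay at 0.17 and 0.20.

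In the central pair group SPAG16 and STK36 stood above the control and the others did not. SPAG16, a protein of the central apparatus, read 7.95, 7.83 and 7.05 with AllStar, 8.32, 8.32 and 8.12 with Qmimic, and 8.25, 8.05 and 8.41 with Dmimic. The groups did not overlap, and the difference of both mimics was 1.55-fold with all arrays (adjusted p = 0.137 in limma) and 1.28-fold without AllStar replicate 3 (adjusted p = 0.0742). STK36, a kinase of the fused family needed to build the central pair, differed by 1.35-fold (adjusted p = 0.1 in limma) and 1.25-fold (adjusted p = 0.0573). HYDIN, which lies on a projection of the central pair, differed by -0.29, or -0.13 without AllStar replicate 3. SPAG6, another central pair protein and named here after its values were seen, read 3.95, 3.88 and 4.10 with AllStar and 3.56 to 3.76 on the mimic arrays, a difference of -0.28, or -0.22 without AllStar replicate 3 (adjusted p = 0.146 and adjusted p = 0.127 in limma). On its dimmer probe set the difference was -0.0086, or 0.047 without that array.

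IQCG led the regulatory complex group. It read 5.95, 5.96 and 5.47 with AllStar, 6.40, 6.23 and 6.08 with Qmimic, and 6.42, 6.32 and 6.75 with Dmimic, with no overlap between mimic and control arrays. The difference of both mimics was 1.49-fold (adjusted p = 0.108 in limma) and 1.33-fold without AllStar replicate 3 (adjusted p = 0.0812). On the dimmer probe set of IQCG the log2 difference was -0.17, or 0.014 without that array. GAS8, another subunit of the complex, lay at 0.083, or 0.14 without that array, and CCDC40, which sets the spacing of arms and spokes as a molecular ruler, at -0.26, or 0.0027.

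The genes of the doublet microtubules lay near the control. Their differences for both mimics ran from -0.14 for MNS1, a filament-like protein in the lumen of the doublets, to 0.29 for CFAP53, which docks outer arms, and TEKT3, a tektin filament protein, lay at -0.13. MNS1 was at -0.37, CFAP53 at 0.13 and TEKT3 at 0.035 without AllStar replicate 3. MNS1 read 6.54, 6.53 and 5.86 with AllStar and 5.76 to 6.43 on the mimic arrays. Without AllStar replicate 3 its groups thus did not overlap (adjusted p = 0.21 in limma).

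CFAP36, which binds the cilium GTPase ARL3, had the highest difference for both mimics with all 9 arrays among the 40 genes written down by function, and it is named after its values were seen. Its log2 signal was 9.10, 9.05 and 8.33 with AllStar, 9.70, 9.48 and 9.43 with Qmimic, and 9.42, 9.55 and 9.73 with Dmimic. The groups did not overlap, and AllStar replicate 3 was the lowest array. The difference of both mimics was 1.66-fold with all arrays (adjusted p = 0.0926 in limma). Without that array it was 1.40-fold (adjusted p = 0.0282), past the p threshold and short of 1.5-fold.

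**Figure D3:**
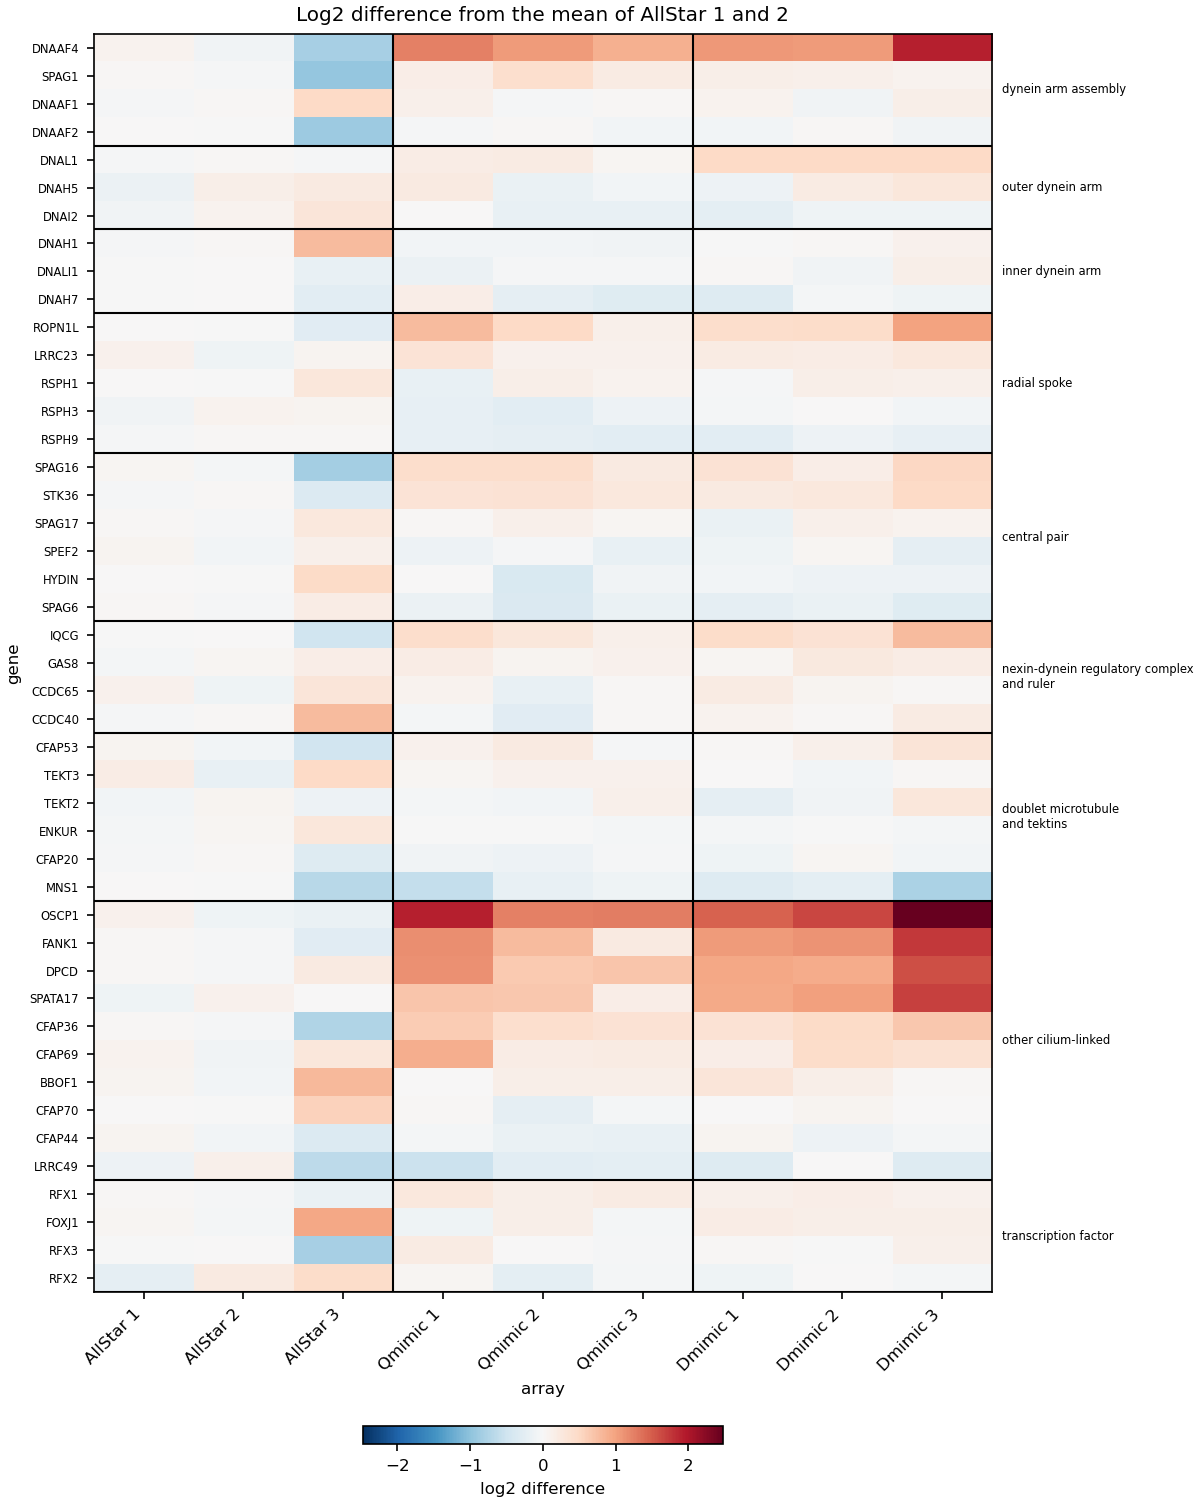
Log2 difference of each array (columns) from the mean of AllStar replicates 1 and 2 for the 45 measured genes (rows), ordered by role, with red above and blue below. OSCP1, DNAAF4, FANK1, DPCD and SPATA17 are red over the mimic arrays, and the column of AllStar replicate 3 departs from its group in both directions, up for FOXJ1 and down for SPAG1.

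None of the 4 transcription factors passed in limma. FOXJ1, the main activator of the motile cilium programme, read 6.09, 6.00 and 7.00 with AllStar, 5.93, 6.19 and 6.00 with Qmimic, and 6.23, 6.19 and 6.19 with Dmimic. The groups overlapped, and the difference of both mimics was -0.24 with all arrays and 0.080 without AllStar replicate 3 (adjusted p = 0.458 and adjusted p = 0.62 in limma). RFX3 read 5.68, 5.71 and 4.87 with AllStar against 5.66 to 5.89 with the mimics, a difference of 0.33 that was 0.052 without that array. RFX2 lay at -0.22 and -0.064, with overlapping groups. RFX1, which is expressed in many tissues, was above the control on all mimic arrays (8.25, 8.20 and 8.07 with AllStar against 8.32 to 8.48), by 0.22 and 0.17 (adjusted p = 0.178 and adjusted p = 0.153 in limma). With all 9 arrays this RFX1 difference was 0.068 after repeated quantile normalization and 0.060 after cyclic loess. The dimmer RFX1 probe set lay at 0.041, or 0.091 without AllStar replicate 3. The 95% interval of the FOXJ1 difference without AllStar replicate 3 was 0.080 ± 0.16 on the log2 scale.

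The X-box is the element by which RFX factors bind ciliary promoters, and the list rule did not use sequence. The 250 bases before the annotated start were searched on both strands for the short motif GTTGCC and for a long motif, GTNNCC followed by any 3 bases and GNAAC, which can contain the short one. Of the 35 measured members with an entry in the RefSeq promoter table (GRCh38.p14), 14 held the short motif (40.0%) and 10 the long one (28.6%), against 12.3% and 2.4% of the 27305 genes of the table. OSCP1 and DNAAF4, which had the largest differences of the members, and FOXJ1 were among those without an entry. The counts and medians by motif therefore leave them out. Genes with the long motif lay on both sides of the control. The median difference of both mimics without AllStar replicate 3 was -0.020 over the 10 members with the long motif and 0.054 over the 25 without it, and the range with it was -0.28 to 0.85. For the short motif the order was the other way, with 0.14 over the 14 members with it and 0.035 over the 21 without it. With all 9 arrays the medians were -0.053 and 0.083 for the long motif. They were 0.19 and 0.028 for the short one. A link between motif and level was not tested. The matches describe letters only, and binding was not measured.

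Stretches before the start are shown for genes that were higher with the mimics (SPATA17, DPCD, CFAP36 and SPAG16) and for 2 that hold the long motif and lay lower (SPAG6 and RSPH9). Capitals mark the long motif on either strand or, for DPCD and CFAP36, the short motif.
SPATA17, chr1:217631296-217631343, plus strand: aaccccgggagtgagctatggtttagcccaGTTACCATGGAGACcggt
DPCD, chr10:101588271-101588320, plus strand: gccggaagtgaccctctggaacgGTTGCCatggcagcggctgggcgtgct
CFAP36, chr2:55519601-55519666, plus strand: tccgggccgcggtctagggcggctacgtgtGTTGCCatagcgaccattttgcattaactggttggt
SPAG16, chr2:213284250-213284323, plus strand: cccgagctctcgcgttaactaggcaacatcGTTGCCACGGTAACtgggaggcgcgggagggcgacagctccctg
SPAG6, chr10:22345442-22345495, plus strand: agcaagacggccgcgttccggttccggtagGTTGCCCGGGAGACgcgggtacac
RSPH9, chr6:43644855-43644928, plus strand: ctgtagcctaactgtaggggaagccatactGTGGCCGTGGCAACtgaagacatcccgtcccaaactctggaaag
The first capital lies 18 bases before the start in SPATA17, 27 in DPCD, 87 in CFAP36, 184 in SPAG16, 24 in SPAG6 and 151 in RSPH9.

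Setting Qmimic against Dmimic asks whether the mimics differ from each other, and it uses no AllStar array for the difference itself. No member passed in limma in either direction, with all 9 arrays or without AllStar replicate 3, and 3 and 6 had an unadjusted p under 0.05, against 502 and 2308 of all 19775 genes. Over all genes 0% passed with all 9 arrays, and 0.0101% as higher and 0.086% as lower with Qmimic without AllStar replicate 3. Most members lay higher with Dmimic: 31 of 45, with a median Qmimic minus Dmimic difference of -0.042, against 10705 of 19775 genes and a median of -0.0098. All Dmimic arrays lay above all Qmimic arrays for 5 members (SPATA17, DNAL1, DNAH1, RSPH3 and CCDC40) and below for 2 (SPAG1 and TEKT3), against 9.4% and 8.12% of all genes. SPATA17 differed by -0.71 ± 0.45 (95% interval, adjusted p = 0.9999 in limma), DNAL1 by -0.34 ± 0.18 and CCDC40 by -0.21 ± 0.43. The spread behind these intervals came from all 9 arrays, AllStar replicate 3 included. Without that array the intervals were ± 0.43, ± 0.14 and ± 0.19 (adjusted p = 0.223, 0.0758 and 0.4 in limma). With all 9 arrays the difference was -0.38 ± 0.57 for OSCP1 and -0.29 ± 0.61 for DNAAF4. Equal levels and a higher level with either mimic lie within both intervals. The 5 named genes were chosen by values that include the Dmimic arrays.

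**Figure D4:**
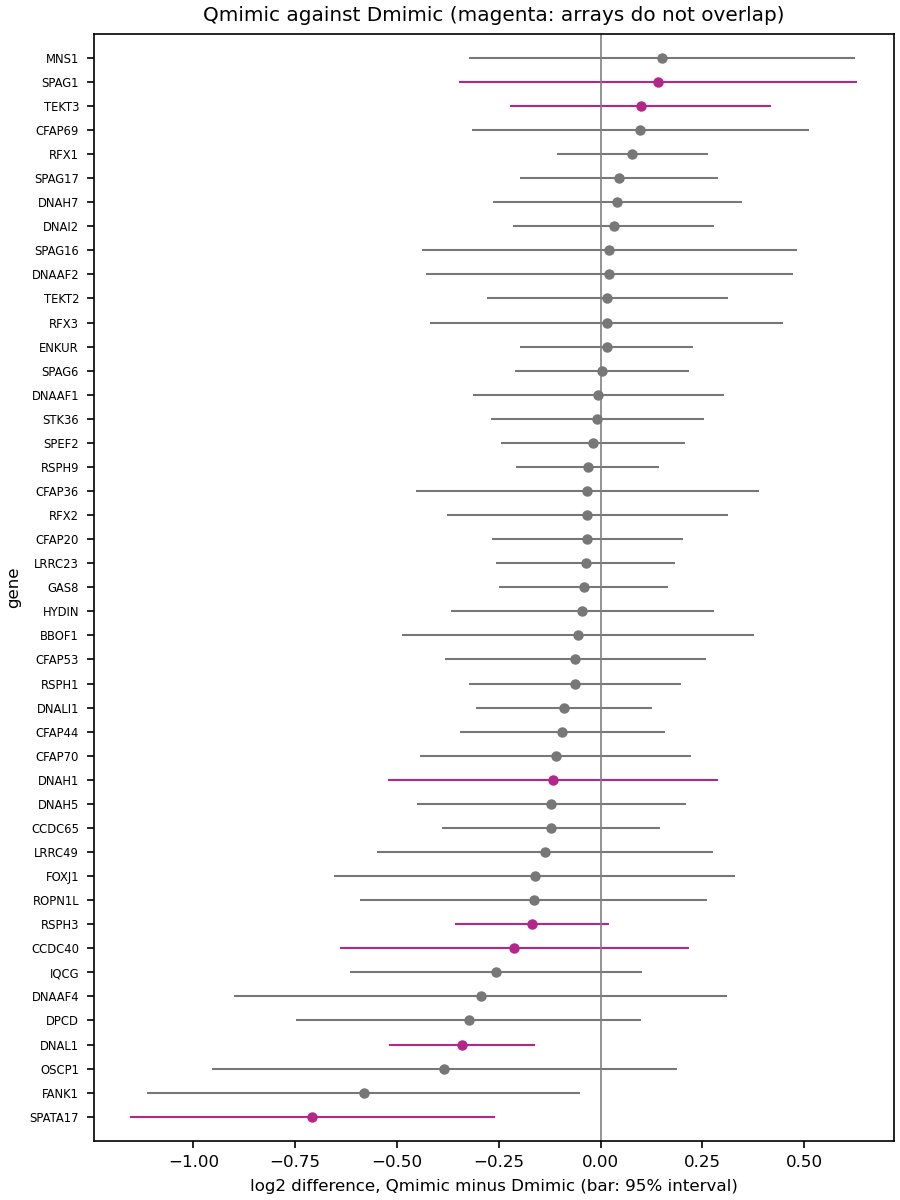
Log2 difference Qmimic minus Dmimic (horizontal axis) with its 95% interval for the 45 measured genes (vertical axis); magenta marks the 7 genes whose Qmimic and Dmimic arrays do not overlap. SPATA17 lies lowest at -0.71, and the intervals of most genes include 0.

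Proliferation genes were measured on the same arrays. The mean log2 signal of 12 of them (such as MKI67, TOP2A and CDK1) was 10.65 to 11.06 with AllStar, 10.37 to 10.69 with Qmimic and 9.91 to 10.67 with Dmimic, and all 12 had a negative difference for both mimics. In limma 0 passed as lower with all 9 arrays, where 6 had an unadjusted p under 0.05, and 2 (the replication licensing genes MCM2 and MCM5) without AllStar replicate 3. Among all 19775 genes 4761 had such a p with all 9 arrays, and 0.445% passed as lower without AllStar replicate 3. Without that array all 12 had an unadjusted p under 0.05, against 4542 of all genes. All 6 mimic arrays then lay below the remaining AllStar arrays for all 12, against 11.5% of all genes. With all 9 arrays this held for 5 of the 12, against 4.21% of all genes. Dmimic replicate 3 had the lowest mean of the proliferation genes and the highest mean of the 5 named genes (7.41 against 6.62 and 6.68 on the other Dmimic arrays). Among the Qmimic arrays replicate 1 had the lowest proliferation mean, 10.37, and the highest mean of the named genes, 6.75. AllStar replicate 3, at 10.65, was as low as Qmimic replicates 2 and 3 on the proliferation genes, while its mean of the named genes, 5.32, was the lowest of all arrays. The part of proliferation in the cilium values was not tested. In such bulk samples fewer cells of a kind and less RNA a cell cannot be told apart.

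**Figure D5:**
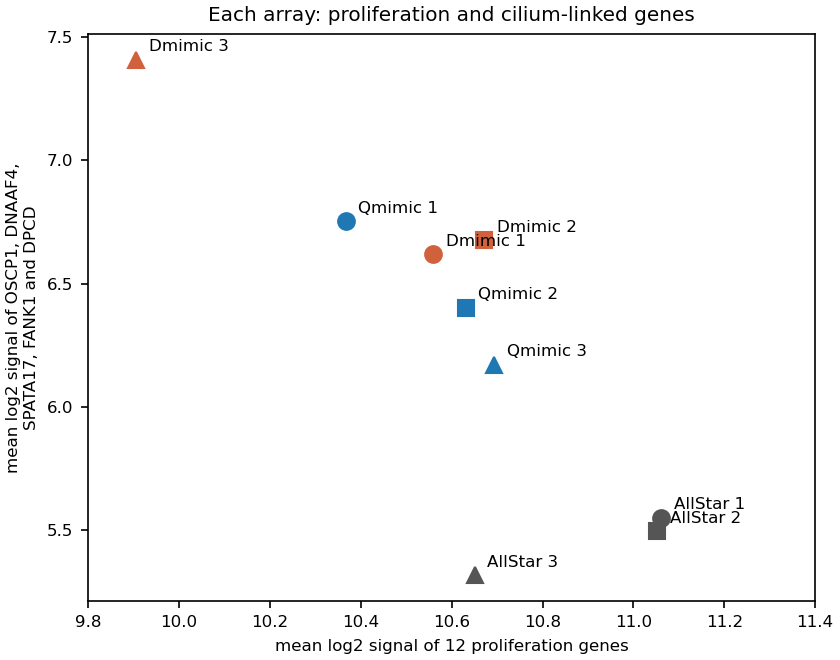
Mean log2 signal of 12 proliferation genes (horizontal axis) against that of OSCP1, DNAAF4, SPATA17, FANK1 and DPCD (vertical axis), 1 point an array; grey, blue and orange are AllStar, Qmimic and Dmimic. Dmimic replicate 3 stands at 9.91 and 7.41, and the 3 AllStar arrays lie at 5.32 to 5.55 on the vertical axis.

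A wider list of other motile cilium genes, 80 symbols of which 72 were measured, was measured beside the members. For both mimics 26 were above AllStar and 46 below with all 9 arrays (median -0.070), and 43 above and 29 below without AllStar replicate 3 (median 0.025). In limma 0 passed with all 9 arrays, where 23 had an unadjusted p under 0.05, and 2 passed as higher and 0 as lower without AllStar replicate 3. Over all 19775 genes 4761 had such a p, and 0.597% passed as higher without that array. They were KIF9, a kinesin of the central apparatus, and CFAP251, which lies at the base of a radial spoke. KIF9 read 8.63, 8.62 and 8.17 with AllStar, 9.51, 9.23 and 9.25 with Qmimic, and 9.35, 9.30 and 9.79 with Dmimic, a difference of both mimics of 1.91-fold (adjusted p = 0.052 in limma) and 1.71-fold without AllStar replicate 3 (adjusted p = 0.0152). CFAP251 read 7.81, 7.83 and 7.36 with AllStar, 8.31, 8.31 and 8.21 with Qmimic, and 8.65, 8.52 and 8.96 with Dmimic. Its difference was 1.77-fold (adjusted p = 0.052 in limma) and 1.59-fold (adjusted p = 0.012). SPA17, a sperm surface protein also found in cilia, differed from AllStar by 1.71-fold with Dmimic (adjusted p = 0.13 in limma) and passed without AllStar replicate 3 (1.50-fold, adjusted p = 0.0384). In the comparison of the mimics 57 of the 72 lay higher with Dmimic, 51 when Dmimic replicate 3 was left out, and the same counts for the members were 31 and 29 of 45. Over all genes they were 10705 and 10360 of 19775. In limma 0 of the 72 passed in this comparison, with all 9 arrays or without AllStar replicate 3. An unadjusted p under 0.05 was found for 1 and 4 of them, against 502 and 2308 of all genes. All 12 proliferation genes lay higher with Qmimic, 3 of 12 when Dmimic replicate 3 was left out.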

How the data were processed

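The deposited table held log2 values that the authors made with RMA, 54675 probe sets on 9 arrays. The series text names AFFYGUI. RMA and limma stand in the submitters' processing notes, where no version is given. The number of arrays limits the precision. Left out were 62 control probe sets, no filter was applied to the remaining 54613, and 28 of the 45 measured members lay above the median level of 5.49. In limma 3.58.1 under R 4.3.3, all 9 arrays entered 1 model of 3 groups, with moderated statistics and Benjamini-Hochberg adjustment over all probe sets. A call needed an adjusted p under 0.05 and 1.5-fold. The fit was tested on simulated data.

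The members and lists were chosen with earlier results of these data known. Named were the 5 genes of earlier results, the 4 factors, the 3 members of each role with the highest difference of both mimics in size, called members, and the 3 with the highest mimic-to-mimic difference without overlap. The lists were other motile cilium genes, multiciliation regulators, mother centriole genes, proliferation genes and cell type markers. Same-number arrays of different groups were not paired: of 9 pairs, 3 had a residual correlation above 0.1 (-0.275 to 0.219). The alternatives were a replicate block, other normalizations, thresholds, probe set rules and arrays left out.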

Additional observations from a re-analysis of the deposited data

How the results depend on the processing

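The count of members called for both mimics, 1 with all 9 arrays, was 0 with a replicate block and 0 after median centring, 3 after repeated quantile normalization, 4 after cyclic loess, 2 among probe sets above the median level, 4 with the mean of a gene's probe sets and 2 with a trend in the moderated statistics. With arrays left out it ran from 0 to 5. For Dmimic, 0 with all 9 arrays, it was 1 after repeated quantile normalization, 4 after cyclic loess and 1 with the trend, and from 0 to 6 with arrays left out. For Qmimic it ran from 0 to 3 with arrays left out and was 0 under the other alternatives, and for Qmimic against Dmimic it was 0 under every alternative. The replicate block changed no other call. A fit without AllStar replicate 3 and 1 other AllStar array leaves 1 control, which is assumed to vary like the other groups.

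The median difference of both mimics over the members, 0.028, was 0.088 after median centring, 0.15 among probe sets above the median level and 0.094 with the mean of a gene's probe sets. The median over all genes, -0.018, was 0.043 after median centring and -0.029 with the mean of a gene's probe sets. With arrays left out the median over the members ran from -0.031 to 0.080. The cause of these shifts was not tested. None of the member values that had passed changed sign.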

Other observations

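Genes at the mother centriole and regulators of multiciliation were looked at beside the members. CCP110 encodes a centriole cap protein that blocks cilia and is a known target of the miR-34 and miR-449 family. Its log2 signal was 7.65, 7.49 and 6.97 with AllStar, 7.57, 7.70 and 7.60 with Qmimic, and 7.63, 7.62 and 7.45 with Dmimic. The groups overlapped, and the difference of both mimics was 0.22 with all 9 arrays and 0.024 without AllStar replicate 3 (adjusted p = 0.352 and adjusted p = 0.907 in limma). Of the 6 measured genes of that list, 5 lay above AllStar with all arrays and 3 without that array, and 0 passed in limma in either fit, where 2 and 4 had an unadjusted p under 0.05. Among all 19775 genes 4761 and 4542 had such a p.

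Of the 17 regulators 15 were measured, and MCIDAS was not among them. For both mimics 4 lay above AllStar and 11 below, and 7 above and 8 below without AllStar replicate 3. In limma 0 passed with all 9 arrays, where 6 had an unadjusted p under 0.05, and E2F5 passed as lower without AllStar replicate 3. Among all 19775 genes 4761 had such a p with all 9 arrays, and 0.445% passed as lower without that array. E2F5, a partner of the regulators that start multiciliation, read 8.38, 8.39 and 7.65 with AllStar, 7.36, 7.64 and 7.72 with Qmimic, and 7.53, 7.65 and 7.00 with Dmimic, so that AllStar replicate 3 lay among the mimic arrays. Its difference was 1.58-fold lower with all arrays (adjusted p = 0.145 in limma) and 1.87-fold lower without that array (adjusted p = 0.0183). MYB, a transcription factor of early ciliogenesis and of proliferating cells, read 5.01, 5.06 and 4.99 with AllStar and 4.46 to 4.74 on the mimic arrays, 1.34-fold lower (adjusted p = 0.064 in limma) and 1.35-fold lower without AllStar replicate 3 (adjusted p = 0.0223), under 1.5-fold. With all 9 arrays and without AllStar replicate 3, GMNC lay at -0.23 and -0.24, TP73 at -0.28 and -0.099, CCNO at 0.13 and 0.029, and CDC20B, whose gene hosts the miR-449 cluster, at -0.035 and 0.063.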
